A study of Caenorhabditis elegans with 2 samples.

Results

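Binding sites of NHR-2 that lie over genes for unclassified noncoding RNAs (ncRNA) were examined. NHR-2 is a nuclear hormone receptor, and its sites were mapped by chromatin immunoprecipitation with sequencing (ChIP-seq) in whole mixed-stage embryos of Caenorhabditis elegans, both sexes pooled. Both libraries, biological replicates 1 and 2 of a single group, came from strain OP99, which is unc-119(ed3) III and carries wgIs99, labelled as an insertion for nhr-2; the labels do not give its promoter or copy number. One label gives the target as eGFP-nhr-2 and another gives the antibody as nhr-2, so the labels do not settle the antibody. The control library named in the labels was not analysed here, nor was any library of animals without the transgene. Of the 1861 peaks in the thresholded list, 1843 were on the nuclear chromosomes I to V and X, and 293 of these (15.9%, 95% exact Clopper-Pearson interval 14.3 to 17.6%) shared 1 bp or more with a WBcel235 gene of biotype ncRNA. The other 1550 nuclear peaks served for comparison. The lists give no read numbers and the depth behind a region is unknown; intervals cover counting error over regions only.

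The ncRNA biotype in the worm annotation collects transcripts that are not placed among the transfer, small nuclear, small nucleolar, micro, Piwi-interacting or long intergenic RNAs, and most members have a clone-based name and no described function. Nuclear hormone receptors are zinc-finger transcription factors that bind DNA next to their target genes, many of them at copies of the core word AGGTCA. A list of peaks does not tell which gene, if any, a site regulates.

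The 6 strongest peaks over ncRNA genes are shown first, because they show how differently a summit can lie relative to the ncRNA gene; 2 of them are neighbours between cki-1 and cki-2. Each line gives the plus strand of build ce11 from RefSeq's WBcel235 assembly, 75 bp either side of the summit, and capitals mark bases inside an annotated ncRNA gene.
T05A6.8 (chrII:7813362-7813512): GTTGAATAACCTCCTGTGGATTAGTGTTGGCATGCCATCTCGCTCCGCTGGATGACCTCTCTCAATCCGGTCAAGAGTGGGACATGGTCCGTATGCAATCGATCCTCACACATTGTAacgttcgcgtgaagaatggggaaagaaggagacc
C05D2.13 (chrIII:5621444-5621594): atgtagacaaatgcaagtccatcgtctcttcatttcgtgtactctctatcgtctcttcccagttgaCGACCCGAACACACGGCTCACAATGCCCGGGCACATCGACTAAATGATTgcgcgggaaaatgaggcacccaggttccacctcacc
Y38C1AA.16 (chrIV:175779-175929): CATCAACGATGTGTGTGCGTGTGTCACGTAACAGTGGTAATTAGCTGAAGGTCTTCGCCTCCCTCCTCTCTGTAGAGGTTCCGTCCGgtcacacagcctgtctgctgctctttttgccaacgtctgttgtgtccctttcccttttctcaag
K01A6.9 (chrIV:11717172-11717322): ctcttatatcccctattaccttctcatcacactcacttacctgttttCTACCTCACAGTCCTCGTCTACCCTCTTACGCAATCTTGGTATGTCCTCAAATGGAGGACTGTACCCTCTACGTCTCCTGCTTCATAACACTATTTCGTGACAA
F59F5.9 (chrX:10555585-10555735): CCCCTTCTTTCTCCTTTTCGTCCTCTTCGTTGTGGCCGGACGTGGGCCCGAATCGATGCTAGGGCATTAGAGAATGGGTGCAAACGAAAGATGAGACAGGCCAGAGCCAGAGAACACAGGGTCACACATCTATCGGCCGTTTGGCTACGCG
T05A6.11 (chrII:7814334-7814484): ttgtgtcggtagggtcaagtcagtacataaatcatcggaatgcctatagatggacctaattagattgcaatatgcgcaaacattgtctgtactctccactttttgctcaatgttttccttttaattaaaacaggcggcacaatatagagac
The windows differed in how much of the ncRNA gene they held. Every base at F59F5.9 was in the ncRNA gene, against 117 at T05A6.8, 104 at K01A6.9 and its opposite-strand neighbour K01A6.11, 87 at Y38C1AA.16, 49 at C05D2.13 and 0 at T05A6.11, whose summit lay 78 bp outside the gene. Each window was searched on both strands for 6 words: AGGTCA is the core of many nuclear receptor sites, GAGAGA is a purine repeat, and GATAAG is the word of GATA factors. The remaining 3 were E-boxes, the words of basic helix-loop-helix and zinc-finger factors: CAGGTG is the one with a GG centre, CAGCTG the one with a GC centre, CACGTG the one with a CG centre. The window at T05A6.8 held AGGTCA, read on the minus strand from base 53, overlapped by GAGAGA on the same strand from base 58. The other 5 windows held none of them.

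The strongest peaks over ncRNA genes had cki-1, daf-4 and tcl-2 as their nearest coding genes. Signal is the authors' score for a region, read within each list. The peak over T05A6.8 had a signal of 615 in the series list, 321 in replicate 1 and 303 in replicate 2; the nearest coding 5′ end was that of cki-1, which encodes an inhibitor of cyclin-dependent kinases. It was the 12th strongest nuclear peak and ranked 17 in both replicate lists. The peak over C05D2.13, annotated as 2 genes of that name with the same 49 bp span on opposite strands, had signals of 541, 332 and 212 in the series, replicate 1 and replicate 2 lists. It lay 3616 bp upstream of daf-4, its nearest 5′ end and the gene of a type II receptor of the TGF-β family. The peak over Y38C1AA.16 had signals of 502, 275 and 231 in the same 3 lists, with tcl-2 as its nearest gene at 3229 bp. All 3 summits were intergenic and inside the ncRNA gene.

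For 5 more of the 20 strongest members, the nearest coding genes were syd-2, ces-1, let-413, ver-3 and unc-130. The peak over F59F5.9 (463 in the series list, 263 in replicate 1, 194 in replicate 2) lay 421 bp upstream of syd-2, which encodes the liprin that organises presynaptic sites. That over F43G9.19 (436, 247 and 198 in the same order) lay 524 bp upstream of ces-1, a Snail-family zinc-finger factor that controls the death of particular sister cells of neurons, and its summit window held AGGTCA and the E-box CAGGTG. F26D11.16 (395, 196 and 200.3) was 1348 bp upstream of let-413, the worm Scribble, and its summit was 162 bp outside the ncRNA gene. F59F3.10 (349, 202 and 148) was upstream of ver-3, a receptor tyrosine kinase related to vertebrate VEGF receptors. C47G2.14 (302, 188 and 118) had its nearest 5′ end at unc-130, a forkhead factor. All 5 ranked 147 or better in both replicate lists; the scaling of the lists is not given, and levels are not compared between them.

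**Figure D1:**
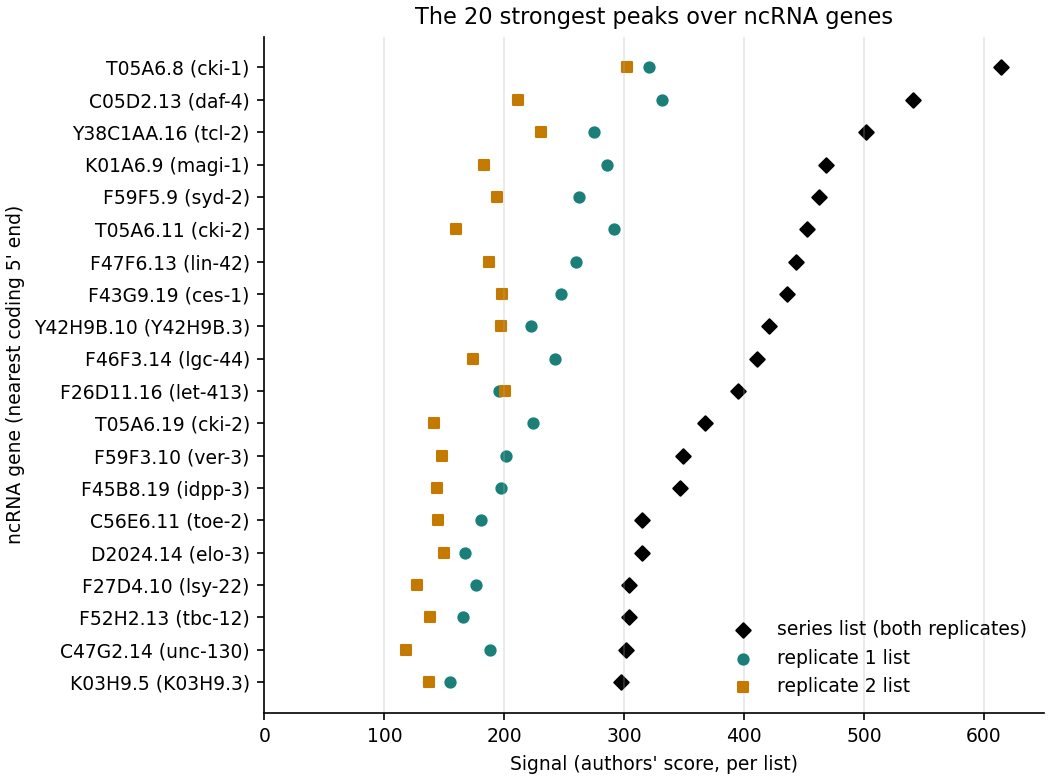
Signal of the 20 strongest peaks over ncRNA genes (rows, named by ncRNA gene and by the nearest coding 5′ end) in the series list (diamonds), the replicate 1 list (circles) and the replicate 2 list (squares); each list has its own scale. The series signal runs from 298 at K03H9.5 to 615 at T05A6.8, and the replicate lists put the same peak, T05A6.8, at 321 and 303.

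A further 7 of the 20 strongest members all had intergenic summits. The peak at Y42H9B.10 had a series signal of 421 and lay 4020 bp from the 5′ end of Y42H9B.3. F46F3.14 had 411 and lay 1548 bp upstream of lgc-44, a ligand-gated ion channel gene; F45B8.19 had 347, held AGGTCA, and had idpp-3 as its nearest gene. C56E6.11, with 315, lay 1450 bp upstream of toe-2, and the peak also touched C56E6.14. D2024.14 also had 315, with elo-3, a fatty acid elongase gene, 2065 bp away, and a second, weaker peak of 56.7 touched the same ncRNA gene. F52H2.13 had 304 near tbc-12, and K03H9.5 had 298 near K03H9.3. The 3 weakest members were the peaks at ZK792.10 (51.9), ZK484.10 in haf-9 (51.9) and T01D3.9 (52.1). T01D3.9 ranked 1175 in replicate 1 and 28913 in replicate 2, and ZK484.10 ranked 5415 in replicate 1 and 1019 in replicate 2, while ZK792.10 ranked 1363 in replicate 1 and 1322 in replicate 2. At the weak end the replicates thus ranked 2 of these 3 far apart.

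The interval between cki-1 and cki-2 held 3 of the 12 strongest members. On chromosome II, cki-1 spans 7811240 to 7812105 and cki-2 spans 7816499 to 7820281, both on the plus strand; each encodes a CIP/KIP-type inhibitor that restrains entry into S phase. The 4 peaks between them had signals of 142, 615, 452 and 368, in order from cki-1, and all 4 overlapped an ncRNA gene: T05A6.17, T05A6.8, T05A6.11 and T05A6.19. The 3 other peaks at these genes overlapped none; they had signals of 417 in the cki-1 promoter and 71.1 and 73.3 inside cki-2. Not every ncRNA gene of the interval was touched: T05A6.13, T05A6.14, T05A6.16 and T05A6.18 had no peak. The peak of 142 reached 16.7% of T05A6.17, with its summit 168 bp outside, and that of 452 reached 40.9% of T05A6.11. Among all nuclear peaks 15.9% were members. The ncRNA genes lie close together in this interval, and how often a peak would meet 1 there by position alone was not tested. Of the 24 cell cycle genes listed, cki-1 and cki-2 were the 2 (8.33%, 1.03 to 27.0%) that held or were nearest to a peak over an ncRNA gene. Over all protein-coding genes the share was 241 of 19973, or 1.21%. The cki locus was known from earlier results, and the list was chosen with those known, so the count is a description.

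**Figure D2:**
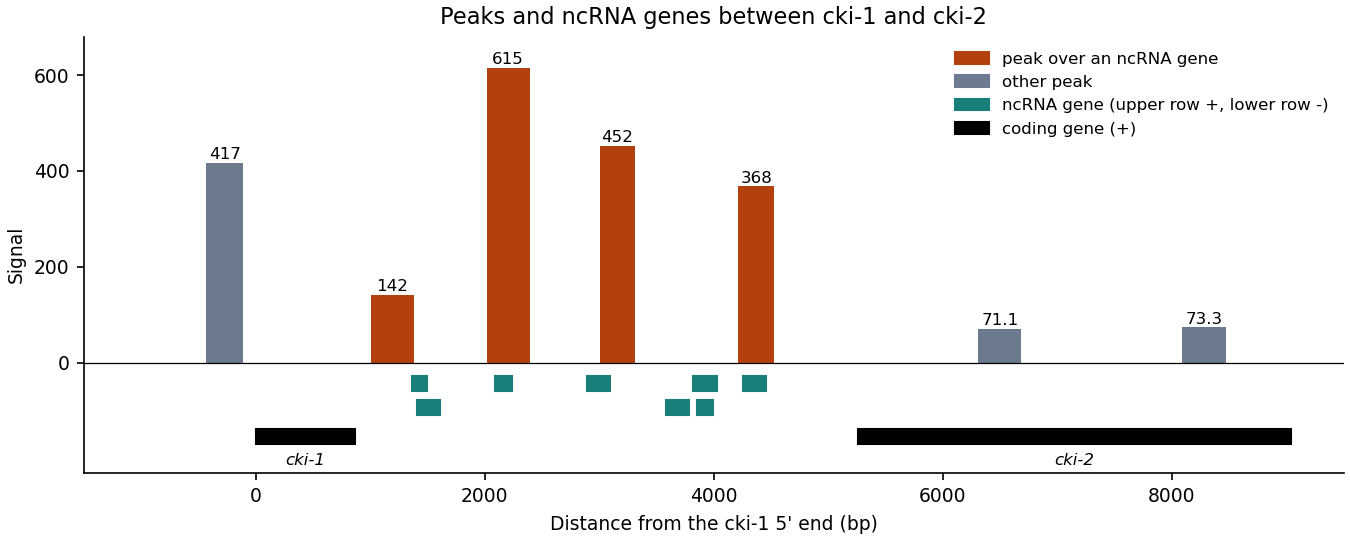
Peaks (bars, height is the series signal, width is the interval) along the cki-1 to cki-2 locus, with distance in bp from the cki-1 5′ end on the horizontal axis and ncRNA and coding genes drawn to scale below. The 4 peaks over ncRNA genes, 142 to 615, lie in the interval between the coding genes, and the bars at 417, 71.1 and 73.3 touch no ncRNA gene.

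The strongest members inside coding genes were in magi-1, lin-42 and lsy-22. For 102 of the 293 peaks (34.8%, 29.4 to 40.6%) a touched ncRNA gene lay wholly within a protein-coding gene, 84 coding genes in all, and the nearest coding 5′ end was that of the same gene for 80 of the 102. Of the 124 touched ncRNA genes inside coding genes, 37 were on the strand of the coding gene (29.8%, 22.0 to 38.7%), against 1072 of the 3269 untouched ones (32.8%, 31.2 to 34.4%). An exon of the coding gene was met by 13 of the touched genes (10.5%, 5.70 to 17.3%), against 661 of the untouched ones (20.2%, 18.9 to 21.6%). The strongest was in magi-1, a membrane-associated guanylate kinase scaffold of cell junctions, where K01A6.9 and K01A6.11 lie over each other on opposite strands; its signals were 468 in the series list, 286 in replicate 1 and 183 in replicate 2. Next came lin-42, the worm Period homologue that times larval development, with 443 in the series list, 259.8 in replicate 1 and 187 in replicate 2 over F47F6.13, and lsy-22, a Groucho-related corepressor gene, with 304, 177 and 127 over F27D4.10. Members with an ncRNA gene inside a coding gene had a median series signal of 95.7 (n = 102), and the remaining members 83.2 (n = 191).

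The loci named next were picked once their values were known. Of 243 loci, formed by joining members whose summits were within 5 kb, 208 held 1 member, 24 held 2, 8 held 3, 2 held 4 and 1 held 5. The run of 5, with F58H1.13 at its left and F58H1.16 at its right end on chromosome V, was weak throughout, with signals from 54.6 to 83.3. Upstream and inside egl-27, which encodes a relative of the MTA subunit of nucleosome remodelling complexes, 4 members had signals of 123, 109, 80.7 and 74.4. Only those with 80.7 and 74.4 were within 5000 bp of the egl-27 5′ end. In lit-1, the Nemo-like kinase, 2 members that overlap each other touched W06F12.7, with signals of 266 and 73.0. AGGTCA was in the window of the stronger peak. Its summit lay 215 bp outside the gene, so the window of 75 bp either side held no base of W06F12.7. Upstream of wrm-1, a β-catenin, 2 members had 94.2 and 87.7, and upstream of pop-1, the TCF factor, 2 had 100.6 and 66.9. Both at wrm-1 were within 5000 bp of its 5′ end, but not both at pop-1. Further runs of 3 included ten-1, a teneurin, with 158, 122 and 79.9, and prkl-1, the Prickle homologue, with 163, 72.1 and 58.8. Another was at dlg-1, the Discs large scaffold, with 201, 120 and 54.1. As nearest coding genes within 5000 bp, swah-1 (152, 139 and 108) and ddr-2 (223, 79.4 and 76.9) also had 3 members each. A further member, F11D5.29 with 67.2, had ddr-2 as its nearest gene but was not among those within 5000 bp. The first pair at dlg-1 was a single interval, 5475167 to 5475671 on chromosome X, listed under 2 summits over C25F6.10, C25F6.12, C25F6.14 and C25F6.15. Those were 4 of the 11 ncRNA genes touched by 2 peaks each; the other 362 touched genes had 1 peak.

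Coding genes were also grouped by symbol, and a gene was linked to a member if it held the touched ncRNA gene or had the nearest 5′ end within 5000 bp. Linked genes were 1 of 269 nuclear hormone receptors (nhr-17, signal 57.1), 2 of 63 ceh homeobox genes (ceh-32 with 80.6 and ceh-39 with 69.3), 1 of 25 hlh genes (hlh-3 with 53.5), 2 of 40 ztf, zfp and zip genes (ztf-16 with 136 and ztf-11 with 93.0) and 0 of 18 tbx genes, for which the interval reaches 18.5%. Among housekeeping families, 3 of 76 ribosomal protein genes were linked (rpl-11.2 with 116, rpl-5 with 87.4, rps-1 with 76.5), 2 of 50 histone genes (his-4 with 99.0, his-42 with 65.4) and 1 of 20 heat shock genes (hsp-1 with 77.7). Of 156 collagen genes 1 was linked, col-99 with 74.9. The exact intervals of all 10 lists, that of the cell cycle genes included, contain the 1.21% of all coding genes. No member lay within 20 kb of nhr-2 itself.

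Whether peaks over ncRNA genes were stronger than other peaks was asked in each list. They were close to the rest. The median series signal was 88.8 in the 293 members (quartiles 63.7 and 136, range 51.9 to 615) and 82.6 in the other 1550 (quartiles 62.9 and 130.4, range 51.6 to 2151), a ratio of 1.07. In replicate 1 the medians were 50.3 in members and 46.9 in the other peaks, and in replicate 2 they were 43.5 and 40.7, ratios of 1.07 in both. With the other peaks taken from the same location class the ratio was 1.08. By class, members had medians of 75.1 in promoter windows, 108 in introns and 93.3 in intergenic sequence, and other peaks 73.3, 90.1 and 90.8. The members were spread over the whole range of the list: cut into 4 equal parts from strongest to weakest, the nuclear peaks held 78, 77, 67 and 71 of them. Of the 100 strongest nuclear peaks 22 were members (22%, 14.3 to 31.4%) and of the 20 strongest 3. Regions of 1 group are not replicates, so the medians are given with no test.

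**Figure D3:**
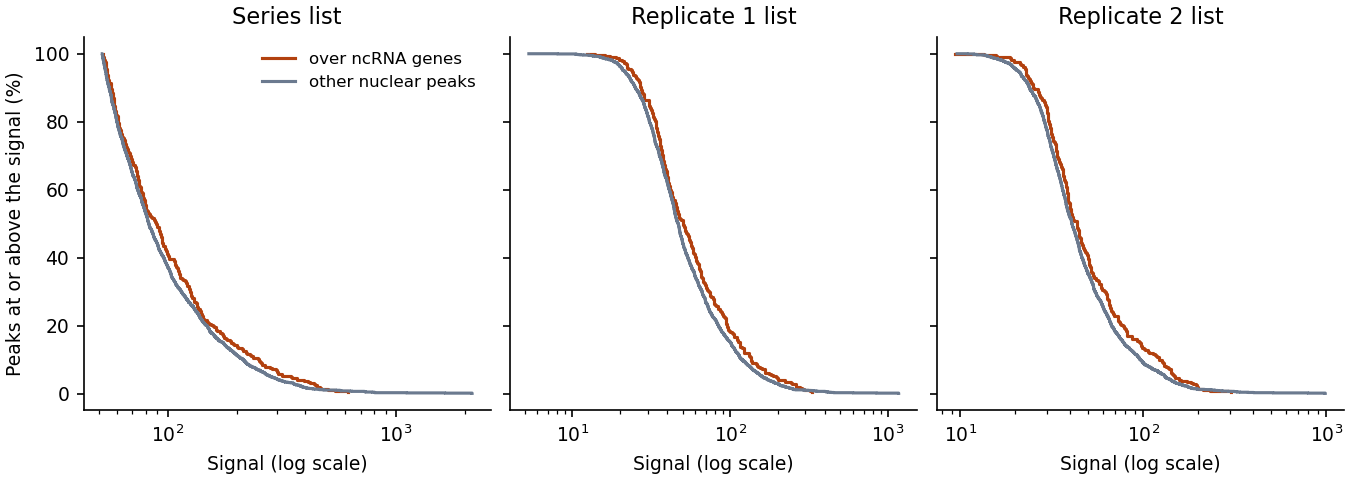
Share of peaks at or above a given signal (horizontal axis, log scale) for peaks over ncRNA genes and for other nuclear peaks, in the series, replicate 1 and replicate 2 lists. The curves run close together in all 3 panels, with medians of 88.8 and 82.6 in the series list.

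A candidate region overlapped 292 of the 293 members and 1549 of the 1550 other peaks in replicate 1, and 291 members and 1541 other peaks in replicate 2, lists from which the thresholded one was made. Of the members, 216 (73.7%, 68.3 to 78.7%) overlapped one of the top 1861 candidates in each replicate list, against 1042 of the other 1550 nuclear peaks (67.2%, 64.8 to 69.6%). The replicate signals had a Spearman correlation of 0.703 over 290 members and 0.626 over 1540 other peaks, as a description: the list was itself thresholded on agreement of the replicates. Where several peaks overlapped the same candidate region, as at dlg-1 and ncam-1, they share its replicate value. Of the members, 18 (6.14%) shared bases with another nuclear peak, against 28 (1.81%) of the other peaks, so some members are neighbouring summits of the same site.

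The overlap with ncRNA genes did change down the candidate list. The series candidate list holds 29982 nuclear regions, and the 1843 thresholded peaks among them (6.15%) are its strongest. Of the candidates over ncRNA genes, 293 of 1681 were in the thresholded list (17.4%, 15.6 to 19.3%), against 1550 of 28301 other candidates (5.48%, 5.21 to 5.75%). Read in bands of 1843 regions by signal, the share over an ncRNA gene was 15.9% in the first band, 11.9% in the second, 8.25% in the third, 6.02% in the fourth and 3.42% in the sixteenth. Within the 1843 peaks that pass the threshold the 4 parts had similar numbers. The difference in passing was seen in each location class: in introns 16.6% of candidates over ncRNA genes passed, against 4.35% of other candidates; in intergenic sequence 18.2% against 6.45%; in promoter windows 19.1% against 7.54%; and in exons 5 of 74 (6.76%, 2.23 to 15.1%) against 1.56%. The replicate lists gave 15.9% against 5.49% in replicate 1 and 19.0% against 5.47% in replicate 2, with their 1861 strongest regions taken as passing.

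**Figure D4:**
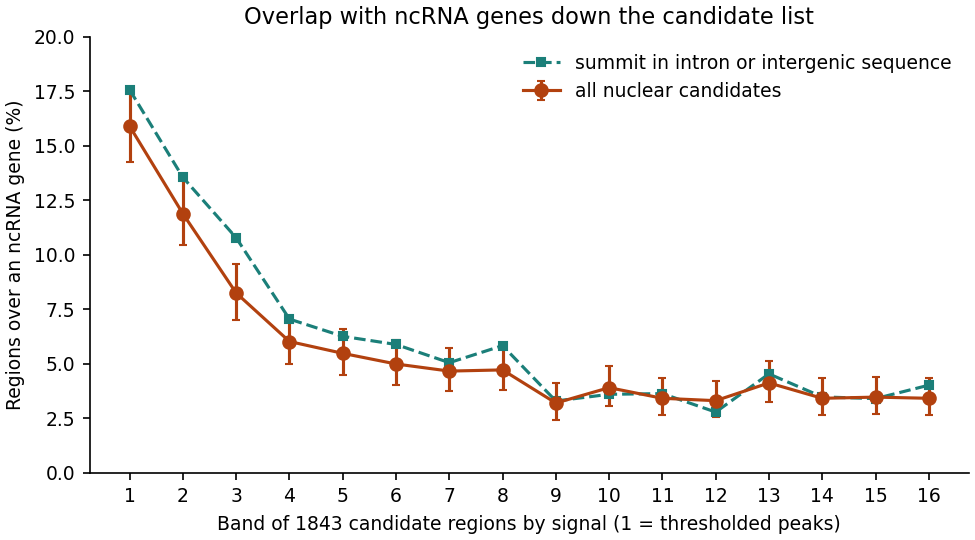
Percent of candidate regions that overlap an ncRNA gene in successive bands of 1843 nuclear regions by signal, the first being the thresholded peaks; circles are all regions with 95% exact Clopper-Pearson intervals, squares those with a summit in an intron or intergenic sequence. The share is 15.9% in the first band and 3.42% in the sixteenth, with 17.6% and 4.02% for the squares.

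The share of sequence was compared in the same way. Genes of biotype ncRNA covered 6.75% of the bases in nuclear peaks and 1.09% of all nuclear bases, a ratio of 6.18. With the exons of coding genes left out, the shares were 7.19% of peak bases and 1.42% of nuclear bases, a ratio of 5.07.

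Summits of members were closer to the ncRNA gene than those of weaker candidates over ncRNA genes. The summit was inside a touched ncRNA gene for 160 of 293 members (54.6%, 48.7 to 60.4%), against 461 of the 1388 candidates over ncRNA genes that did not pass the threshold (33.2%, 30.7 to 35.8%). The median width was 380 bp in both. Among the 133 members with the summit outside, the median gap was 50 bp and the largest 215 bp, at W06F12.7 in lit-1. Over the 384 pairs of a peak and a gene, 240 (62.5%, 57.4 to 67.4%) had the summit within 100 bp of the gene's centre, against 682 of 1711 pairs (39.9%, 37.5 to 42.2%) below the threshold. The summit was upstream of the ncRNA 5′ end in 24.7% of pairs and beyond the 3′ end in 21.9%. A summit beside genes of the same span on opposite strands counts once on each side, as at T27F7.5 and C47D2.4. Whether an end was preferred was not tested. Members with the summit inside had a median signal of 92.0, and those with it outside 77.7. The rule itself admitted few marginal cases: 2 members overlapped by 10 bp or less (C47G2.13, signal 253, and R08E3.5, signal 136), and 3 other peaks, with signals from 103.6 to 117, had an ncRNA gene within 10 bp of their end.

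**Figure D5:**
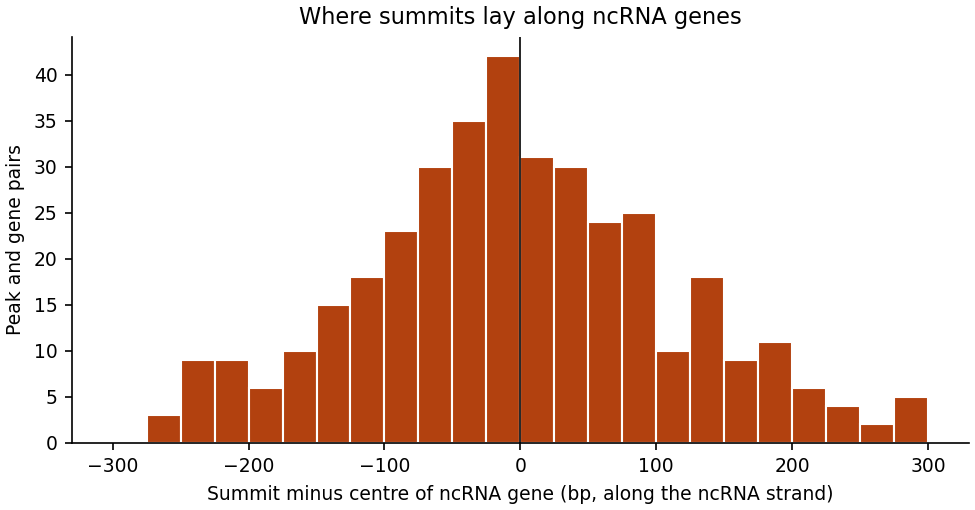
Histogram of the distance from the centre of the ncRNA gene to the summit, in bp along the strand of the ncRNA, over pairs of a peak and a touched gene in bins of 25 bp; 9 of 384 pairs beyond 300 bp are not drawn. Of the pairs, 62.5% are within 100 bp of the centre, on both sides.

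The touched ncRNA genes were 373 of 7764 (4.8%). Their lengths had a median of 147 bp, against 140 bp in the 7391 others. Of the touched genes, 115 were over 200 bp (30.8%, 26.2 to 35.8%), against 17.8% (16.9 to 18.6%) of the others. Up to 100 bp were 12.1% of the touched genes and 28.0% of the others. The longest touched gene was C30E1.9 with 14770 bp, so not all were short RNAs. For 69 members (23.5%) every touched gene was over 200 bp. Touched genes lay wholly within a coding gene in 33.2% of cases (28.5 to 38.3%), against 44.2% (43.1 to 45.4%) of the others. They were overlapped by an ncRNA gene on the opposite strand in 38.3% of cases (33.4 to 43.5%), against 30.8% (29.8 to 31.9%) of the others. A partner of the same span went the other way: 28 touched genes had 1 (7.51%, 5.05 to 10.7%), against 934 of the others (12.6%, 11.9 to 13.4%). Among genes within coding genes, 45 of 859 with an opposite-strand partner were touched (5.24%, 3.85 to 6.95%), against 79 of 2534 without (3.12%, 2.48 to 3.87%). Outside coding genes the shares were 6.27% (5.12 to 7.59%) with a partner and 5.38% (4.57 to 6.28%) without. The intervals with and without a partner overlapped both within and outside coding genes, and the difference was not tested. Genes that cover each other are touched by the same peak, so these counts are not independent, and longer genes have more bases to be touched: 2.13% of genes up to 100 bp were, against 8.06% of those over 200 bp. Most members, 215, touched 1 ncRNA gene; 67 touched 2, 9 touched 3 and 2 touched 4. An RNA gene of another biotype was also overlapped by 27 members (9.22%, 6.16 to 13.1%), against 65 other peaks (4.19%, 3.25 to 5.31%); 9 of these members met a tRNA gene, 8 a snoRNA gene and 6 an snRNA gene.

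The share of peaks that were members was highest on X. X had 90 of the 293 members (30.7%, 25.5 to 36.3%), 22.5% of other nuclear peaks and 32.5% of ncRNA genes. Of the peaks on X, 20.5% (16.9 to 24.6%) were members, against 10.9% on chromosome III and 11.4% on chromosome I, which had the fewest; chromosomes V, II and IV had 18.2%, 17.9% and 14.7%. X carries 142 ncRNA genes per Mb, against 53.7 on chromosome I, and the share of its ncRNA genes that were touched, 4.72% (3.93 to 5.62%), was close to the 4.8% of all chromosomes; chromosome II had the highest share, 6.06%, and chromosome V the lowest.

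Where summits lay relative to coding genes was compared next, in 4 classes whose intervals overlapped between members and other peaks. They were in promoter windows, 1000 bp upstream to 200 bp downstream of a coding 5′ end, in 90 cases (30.7%, 25.5 to 36.3%), against 37.0% (34.6 to 39.5%) of other peaks. They were in introns in 89 (30.4%), against 28.2%, in intergenic sequence in 109 (37.2%), against 31.7%, and in exons in 5 (1.71%), against 3.03%. The median distance to the nearest coding 5′ end was 1793 bp in members and 1378 bp in other peaks, and none was within 5000 bp for 47 members (16.0%) and 245 other peaks (15.8%).

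No word had a share in members whose interval lay apart from that in other peaks. AGGTCA was within 75 bp of 42 member summits (14.3%, 10.5 to 18.9%) and of 276 other summits (17.8%, 15.9 to 19.8%); over all nuclear peaks the share was 17.3%. In windows of equal width 400 bp to the left and right of member summits it was 4.10% and 2.73%. Members with and without AGGTCA had median signals of 85.8 and 88.8. GAGAGA was in 92 members (31.4%, 26.1 to 37.1%) and 29.7% of other peaks, against 13.3% and 11.6% of the members' left and right flanks and 7.61% and 8.58% of the other peaks' flanks. The E-box CAGGTG was in 32 members (10.9%, 7.59 to 15.1%) and in 233 other peaks (interval 13.3 to 16.9%). The E-box CAGCTG was found in 5.46% of members and 6.52% of other peaks. For the E-box CACGTG the shares were 3.75% of members and 5.10% of other peaks. The GATA-factor word GATAAG was found in 5.12% of members and 5.74% of other peaks, no more than in the members' flanks (6.14% on either side). The median GC content of the windows was 47.7% in members and 45.0% in other peaks; the part of base composition in these shares was not tested. Members with AGGTCA included, beside those named, F09E5.22 upstream of pkc-3, the atypical protein kinase C of embryonic polarity, with a signal of 219, and C14F5.9 upstream of sem-5, the GRB2 adaptor, with 213, both also picked with their values known.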

How the data were processed

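The authors deposited region lists of a ChIP-seq experiment with 2 replicates. Per the texts deposited with the libraries, candidate lists of 30000 regions came from the alignments and a control, and those of the series and of each replicate were combined into the thresholded list by the irreproducible discovery rate, a method that compares ranks between replicates. Column 7 of each list holds the signal, the authors' score for a region. Its scaling, the aligner, the peak caller and the cut-off: not given in the sources used here. Only the ce11 lists were used, since no annotation of ce10 was at hand. All region ends lay within the chromosomes of WBcel235.

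Overlap of 1 bp or more with genes of biotype ncRNA in Ensembl release 115 chose the members. Gene spans, 1-based summits and exon unions gave hosts, location classes and distances; a summit counted first as promoter, then exon, intron and intergenic. A replicate value is that of the strongest overlapping candidate region. Words were sought in the RefSeq sequence on both strands. Python 3.11.15, numpy 2.4.6, pandas 2.3.3 and scipy 1.17.1 were used, and interval code was checked on simulated data. With 1 group no test between groups could be made. The named peaks are the 20 strongest, the 3 weakest, those of the cell cycle list and some at genes with several peaks, picked with their values known. Others are marked. Members and lists were chosen with earlier results of these data known. The labels call the replicates biological. Mitochondrial peaks (18) were left out.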

Additional observations from a re-analysis of the deposited data

How the results depend on the processing

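All 8 alternatives kept the share of members with an ncRNA gene inside a coding gene within its interval of 29.4 to 40.6%. Their values ran from 34.9 to 38.2%. For the share with AGGTCA, 9 of 10 alternatives stayed within its interval, and 150 bp either side of the summit gave 22.2%. The number of members was 160 with the summit required inside the gene and 152 with the strongest 930 peaks. The 152 came from a list cut from 1861 to 930 peaks, so this count alone does not show a lower share. In the other 6 the number was within 1.5 times 293 (without each replicate in turn, 284 and 295). The ratio of median signals ran from 0.989 to 1.12. It was 1.12 with the summit inside, 1.02 with 50% or more of the gene inside the peak, 1.11 with windows of 75 bp either side of the summit, 1.02 with the strongest 930, 0.989 with all RNA biotypes, 1.09 with merged peaks, 1.07 with the signal of replicate 2, and 1.04 to 1.06 without each replicate, so its direction turned with all RNA biotypes. The cause was not tested. The ratio of base shares was 7.95 with the summit inside, 7.62 with windows of 75 bp either side of the summit, 7.10 with the strongest 930, 4.45 with all RNA biotypes, 5.07 outside coding exons, and 5.61 to 6.19 without each replicate; the 50% rule gave no such ratio. The share of candidates over ncRNA genes that passed was 25.8% with the summit inside, against 5.73% of other candidates. The exon and location settings for bases and candidates were chosen after seeing the data. No paired analysis was possible because the samples form 1 group.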
